A study of Mus musculus with 6 samples.

Results

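The genes examined were the subunits of NF-κB and the inhibitors that act closest to them: *Nfkb1*, *Nfkb2*, *Rela*, *Relb* and *Rel*, and *Nfkbia*, *Nfkbib*, *Nfkbie*, *Nfkbiz* and *Tnfaip3*. These 10 genes, 5 subunits and 5 inhibitors, were chosen by name from the 16254 genes of the count table, with earlier results of these data known. All 10 passed the filter on low counts. Bulk RNA sequencing compared mouse bone marrow-derived eosinophils cultured for 24 h with extracellular vesicles (EVs) from activated Th2 cells or with sham, which is unconditioned medium taken through the same isolation. There were 3 cultures in each group, labelled as biological replicates. The question was how Th2 cell EVs alter gene expression in eosinophils, and here how the transcripts of the NF-κB machinery differed.

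Both groups came from C57BL/6 mice aged 6 to 12 weeks, whose marrow cells were grown with FLT3 ligand and stem cell factor and then with IL-5, and were used on day 12. The EV group received 5e+09 EVs per ml in complete RPMI, prepared by size exclusion chromatography and ultrafiltration from Th2 cells restimulated through the T-cell receptor. The sham group received an equal volume of the processed medium. The cultures were not reported as sorted before sequencing, so they are a model of eosinophils grown from whole marrow and may hold other marrow-derived cells.

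NF-κB is a family of dimeric transcription factors that rest in the cytoplasm bound to IκB proteins. When a receptor activates the IκB kinase (IKK) complex, the IκB is degraded and the dimer enters the nucleus, where it induces, among others, the genes of its own inhibitors, so that the levels of these inhibitors form a feedback loop. A slower noncanonical route, which depends on the kinase NIK, processes p100 to p52 and releases RelB. In eosinophils NF-κB is known for its part in cytokine production and survival.

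Library totals were 23697620 to 32808674 estimated counts in the sham group and 32260914 to 37874426 in the EV group. The lowest count of any of the 10 genes in any library was 310, for *Relb* in sham replicate 2, where counting alone gives a coefficient of variation of 5.68%, so the spread between cultures usually sets the precision. Eosinophil markers were abundant in all 6 libraries, with a summed normalized count of 942207 to 1186850 in sham and 1344100 to 1501580 in EV, and 8 of 12 of them were higher with EVs. Macrophage markers were also present, with none of 14 at 0 in any library. Their sum was 99205 in sham replicate 1, 159469 in sham replicate 2 and 152753 in sham replicate 3, against 46606 to 54853 in the EV group, and 11 of 14 were lower with EVs and 1, *Adgre1*, higher. Of 7 basophil and mast cell markers tested, 5 were higher, with sums of 4427 to 5930 in sham and 9956 to 12106 in EV. T cell markers summed to 888.4 to 1364 in sham and 977.1 to 1060 in EV. Of 5 tested 2, *Il4* and *Il13*, were higher and 1, *Cd28*, lower. *Il4* (mean 437 in sham and 837 in EV) and *Cd28* (559 and 42.4) made up most of these sums. *Cd3d* was at 38.3 and 48.4, and *Cd4*, *Lck* and *Cd2* did not pass the filter on low counts. Of 11 neutrophil markers tested 2 were higher and 5 lower, of 4 B cell markers 1 was higher, and of 5 dendritic cell markers 0 were called (edgeR's quasi-likelihood test, with 1 under an unadjusted p of 0.05 and 0 called by DESeq2). Over all genes tested, 23.7% were called in either direction.

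Of the 10 genes, *Nfkb1*, *Nfkbie* and *Nfkbiz* were higher with EVs, *Rel* and *Nfkbia* were lower, and 5 were not called at an adjusted p under 0.01 (edgeR's quasi-likelihood test with Benjamini-Hochberg adjustment over the 13498 genes tested). Over all genes tested, 12.1% were called higher and 11.6% lower, 23.7% in either direction. The 10 genes were chosen with earlier results of these data known, and the difference from these shares was not tested. The genes that rose and the genes that fell each hold 1 subunit, and the cytoplasmic IκB genes *Nfkbia* and *Nfkbie* moved in opposite directions. The changes were moderate: the log2 fold changes ran from -0.49 for *Rel* to 0.90 for *Nfkbie*, with a median of 0.07 over the 10 genes and -0.01 over all genes tested. An absolute change of 1 or more on the log2 scale was found in 0 of the 10 genes, where 9.45% of all genes tested were called with a change that large, so that under the study's own rule, which adds this requirement, 0 of the 10 genes would be called. In bulk RNA, a change in the number of cells of a type and a change in RNA per cell cannot be told apart. This holds for rises as for falls. Marker sums of eosinophils, and of basophils and mast cells, were higher in the EV group, as given above. Their part in the rises was not tested.

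Several of these genes are known targets of NF-κB themselves, and for that reason the 250 bases before the start site are shown for genes of each direction. The sequences are RefSeq's, on GRCm38.p6 and 5′ to 3′ on the strand of the gene, and capitals mark matches, on either strand, to the κB consensus that NF-κB dimers bind.
*Nfkbie*, higher with EVs, chr17:45555450-45555699, plus strand: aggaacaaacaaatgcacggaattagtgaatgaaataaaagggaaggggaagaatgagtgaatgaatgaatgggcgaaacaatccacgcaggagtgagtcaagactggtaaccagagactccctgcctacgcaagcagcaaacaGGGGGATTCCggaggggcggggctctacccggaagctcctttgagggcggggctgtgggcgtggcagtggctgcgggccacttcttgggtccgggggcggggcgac
*Nfkbia*, lower with EVs, chr12:55492648-55492897, minus strand: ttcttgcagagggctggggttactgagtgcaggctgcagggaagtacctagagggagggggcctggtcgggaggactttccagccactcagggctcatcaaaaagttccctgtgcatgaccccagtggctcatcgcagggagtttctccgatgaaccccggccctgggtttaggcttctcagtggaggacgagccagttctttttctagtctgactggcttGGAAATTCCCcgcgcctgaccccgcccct
*Rel*, lower with EVs, chr11:23770970-23771219, minus strand: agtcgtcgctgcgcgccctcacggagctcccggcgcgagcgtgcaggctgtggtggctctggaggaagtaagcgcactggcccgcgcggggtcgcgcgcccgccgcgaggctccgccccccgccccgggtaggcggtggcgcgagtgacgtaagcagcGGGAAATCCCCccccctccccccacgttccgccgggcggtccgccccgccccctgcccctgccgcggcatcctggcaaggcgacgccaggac
Counted from -1 for the base just before the start, the *Nfkbie* match lay at -106 to -97, the *Nfkbia* match at -29 to -20, and *Rel* had 2 overlapping matches, at -92 to -83 and -91 to -82. Gene and sequence could be matched for 7 of the 10 genes, in 10 windows of 300 bases that run to 50 bases past the start. The windows of 5 of these genes held a κB match: *Nfkb2* in all of its 3 windows, the last 2 of which overlap and share a match, *Rel*, *Nfkbia*, *Nfkbie*, and *Tnfaip3* in 1 of 2 windows. No match was found in the windows of *Rela* and *Nfkbib*. *Nfkb1*, *Relb* and *Nfkbiz* had no window, so *Nfkbie* was the only gene that rose to be searched. By window, 7 of the 10 held a match, against 8.46% of 32851 windows of all genes. By gene, 9.55% of 27025 genes had a match in any window. GC content was 47% to 75% in the 10 windows against a median of 52.67%. A κB match was thus found both in a gene that rose, *Nfkbie*, in genes that fell, *Nfkbia* and *Rel*, and in genes that were not called, *Nfkb2* and *Tnfaip3*. Motifs of other factors were searched on both strands of the same windows: TTCNNNGAA, bound by STAT proteins, was in 1 of the 10 (8.30% of all windows), in *Nfkb2*, and TGANTCA, bound by AP-1, was in 3 of the 10 (7.81% of all windows), in *Nfkb2*, *Nfkbie* and *Tnfaip3*.

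Among the subunits, *Nfkb1* rose and *Rel* fell. *Nfkb1* (chr3:135584655-135691547, GRCm38) encodes p105, the precursor of p50, a subunit that binds DNA but has no transactivation domain of its own. Its normalized count, the estimated count divided by a size factor for the library, was 8588, 8353 and 7697 in sham replicates 1 to 3 and 10091, 9995 and 10013 in EV replicates 1 to 3. The groups did not overlap, as was so for 6 of the 10 genes and for 49.6% of all genes tested. The mean went from 8213 ± 461 to 10033 ± 51.3 (SD, n = 3 each), 1.22-fold, with a log2 fold change of 0.29 ± 0.0581 (SE) and an adjusted p of 0.00329 by edgeR's quasi-likelihood test. The EV cultures were within a coefficient of variation of 0.511%, and the sham cultures within 5.62%. The EV value is below what counting error alone gives at such counts, so it does not describe how much EV cultures vary. The adjusted p was 0.0115 without sham replicate 3, and 0.0148, 0.0165 and 0.0157 without EV replicates 1, 2 and 3. Under scaling by library totals only, the estimate was 0.14 on the log2 scale (adjusted p = 0.0771).

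*Rel* (chr11:23736847-23770970) encodes c-Rel, a transactivating subunit best known from lymphoid and myeloid cells. Normalized counts were 4066, 4058 and 4075 in the sham group and 2941, 2791 and 2929 in the EV group. Every EV culture was below every sham culture, and the sham cultures were almost level. Their coefficient of variation, 0.215%, was below the 1.64% that counting error gives, so it does not describe how much sham cultures vary. *Rel* was 1.41-fold lower with EVs, with a log2 fold change of -0.49 ± 0.0581 (SE, 95% interval -0.62 to -0.36) and an adjusted p of 0.000104. The call was kept in each of the 6 fits without 1 culture, with log2 fold changes of -0.50 to -0.46. Macrophage markers were lower in the EV group too, and their part in this result was not tested.

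The remaining subunits were not called. *Rela* encodes p65, the main transactivating partner of p50, and was at 2233, 2315 and 2209 in sham and 2269, 2330 and 2423 in EV cultures. *Nfkb2*, the gene of p100 and p52, was at 1465, 1349 and 1322 in sham and 1203, 1253 and 1432 in EV. *Relb*, the gene of the partner of p52, was at 364.9, 379.9 and 394.9 in sham and 327.7, 385.7 and 377.7 in EV. For each of these genes the ranges of the groups overlapped. On the log2 scale *Rela* differed by 0.06 (95% interval -0.08 to 0.20, adjusted p = 0.536), *Nfkb2* by -0.09 (-0.29 to 0.11, 0.477) and *Relb* by -0.06 (-0.36 to 0.24, 0.760). The 95% interval of *Nfkb1*, 0.16 to 0.42, overlapped those of *Rela* and *Relb*. That of *Rel*, -0.62 to -0.36, lay below the intervals of *Rela* and *Nfkb2* and all but met that of *Relb*. Differences between genes were not tested. *Relb* shared 1.81% of its 31-base words with transcripts of other genes, the most of the 10 genes. Exons of *Nfkb2* overlap antisense transcripts, *Psd* among them, whose reads could not be told apart if strand was not used in counting.

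**Figure D1:**
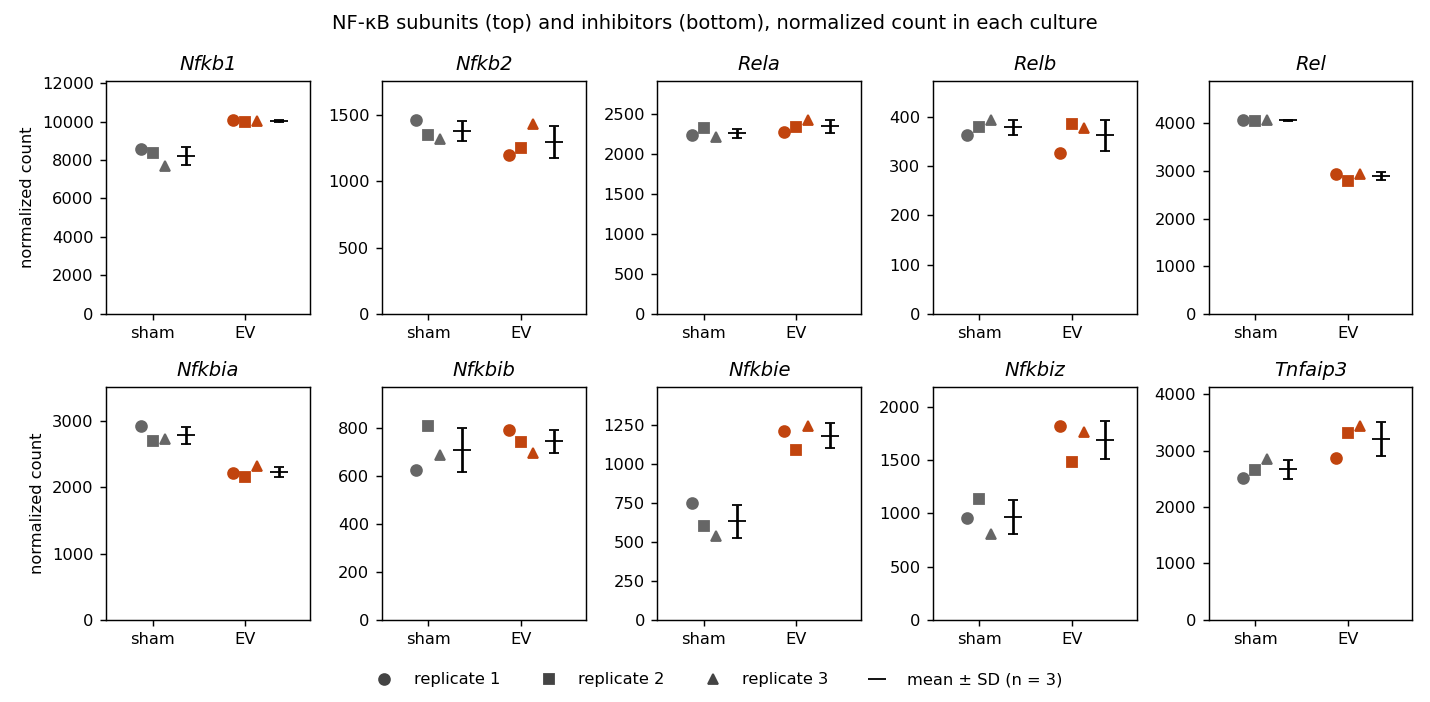
Normalized count (y axis, from 0) of each of the 10 genes in the 3 sham and 3 EV cultures, with subunits in the top row and inhibitors in the bottom row. Symbols give the replicate number, and the bar beside each group gives the mean ± SD. *Rel* and *Nfkbia* sit lower, and *Nfkb1*, *Nfkbie* and *Nfkbiz* higher, in all 3 EV cultures. *Tnfaip3*, which was not called, also sits higher in all 3, by a narrow margin.

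Inhibitors that hold dimers in the cytoplasm diverged. *Nfkbia* (chr12:55489410-55492647) encodes IκBα, the inhibitor that NF-κB rapidly resynthesises after activation. Its normalized count was 2928, 2702 and 2727 in sham and 2225, 2164 and 2316 in EV cultures. The groups did not overlap, and the mean was 1.25-fold lower with EVs, at 2235 ± 76.4 against 2786 ± 124 (SD). The log2 fold change was -0.32 ± 0.0651 (SE, 95% interval -0.46 to -0.17) with an adjusted p of 0.00363. That call was lost without sham replicate 3 (adjusted p = 0.0109) and without EV replicates 1, 2 and 3 (0.0233, 0.0294 and 0.0142). The macrophage markers were lower in the same cultures, and their part in this result was not tested.

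*Nfkbie* (chr17:45555703-45563169) encodes IκBε, an inhibitor that is also resynthesised after NF-κB activation and that binds mainly p65 and c-Rel dimers. It stood at 749.7, 600.5 and 538.3 in the sham group and at 1208, 1089 and 1241 in the EV group. The lowest EV culture was well above the highest sham culture. The mean rose 1.87-fold, from 629 ± 109 to 1179 ± 80.2 (SD), with a log2 fold change of 0.90 ± 0.126 (SE, 95% interval 0.62 to 1.18) and an adjusted p of 0.000332. In size this change exceeded 80.5% of all genes tested, and the call was kept without any 1 culture, with log2 fold changes of 0.81 to 1.06. *Nfkbib*, the gene of IκBβ, was at 627.1, 810.1 and 688.9 in sham and 794.2, 744.8 and 698.9 in EV cultures. These ranges overlapped, and the log2 fold change was 0.08 (95% interval -0.19 to 0.34, adjusted p = 0.663). The interval of *Nfkbib* does not reach the change of *Nfkbie*. Exons of *Nfkbib* overlap those of *Sirt2* and *Ccer2* on the other strand.

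*Nfkbiz* and *Tnfaip3* act at other points. *Nfkbiz* (chr16:55811375-55838899) encodes IκBζ, an inducible nuclear protein that binds p50 and takes part in switching on secondary target genes such as *Il6*. It was at 957.8, 1129 and 805.6 in sham and at 1818, 1479 and 1760 in EV cultures, with no overlap. The mean rose 1.75-fold, from 964 ± 162 to 1686 ± 182 (SD), with a log2 fold change of 0.81 ± 0.127 (SE, 95% interval 0.52 to 1.09) and an adjusted p of 0.000730. This call too was kept in all 6 fits without 1 culture. *Tnfaip3* (chr10:19000910-19015657) encodes A20, which edits ubiquitin chains upstream of IKK and ends signalling. Normalized counts were 2505, 2659 and 2846 in sham and 2872, 3306 and 3435 in EV cultures. The groups did not overlap, but by a narrow margin, since the lowest EV value was 2872 and the highest sham value 2846. The log2 fold change was 0.26 ± 0.083 (SE, 95% interval 0.08 to 0.45) and the adjusted p of 0.0316 missed the threshold, as did those of every alternative fit, which ran from 0.0119 with the replicate block to 0.298 with library totals only.

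**Figure D2:**
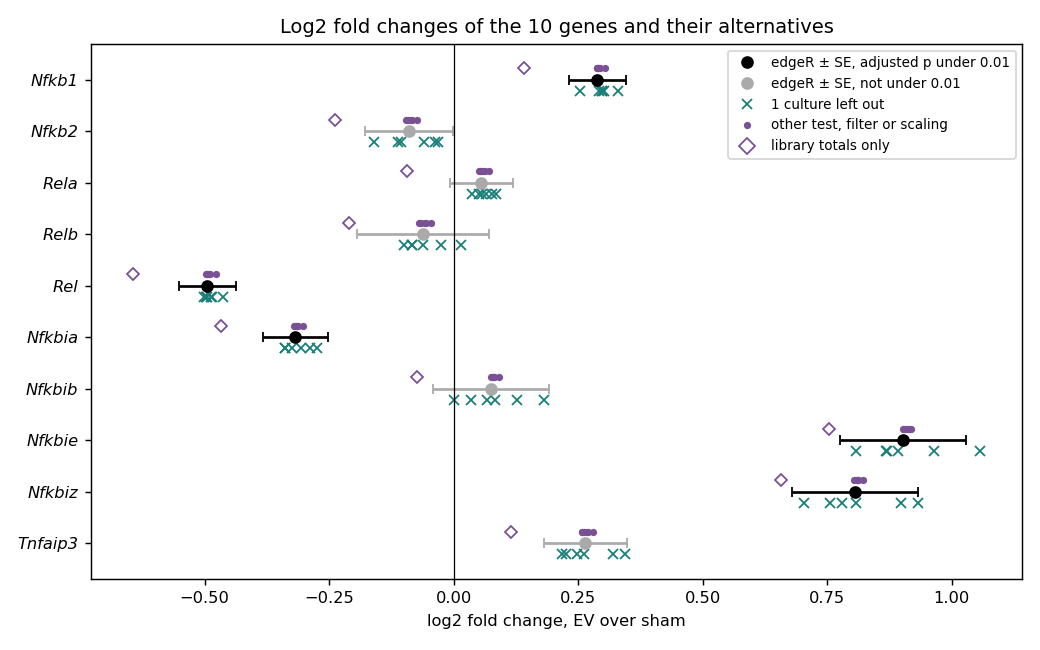
Log2 fold change of EV over sham (x axis) for the 10 genes, with the edgeR estimate ± SE in black where the adjusted p was under 0.01 and in grey where it was not. Crosses leave out 1 culture, small dots use another test, filter or scaling, and diamonds use library totals only, which shifts every gene to the left. *Nfkbie* and *Nfkbiz* lie farthest to the right and *Rel* farthest to the left.

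Set per kilobase of the median protein-coding transcript, which allows levels to be compared between genes, *Nfkb1* had the highest level of the 10 genes in sham, 2731 ± 153 normalized counts per kb (SD, n = 3), followed by *Nfkbia* at 1765 ± 78.6, *Rela* at 1463 ± 36.2 and *Tnfaip3* at 1107 ± 70.7. The sham ranges of these genes did not overlap one another. *Nfkbib* at 570 ± 74.9 and *Rel* at 545 ± 1.17 came next and could not be ordered, since *Nfkbib* ranged from 505 to 652. *Nfkb2* was at 440 ± 24.2, *Nfkbie* at 263 ± 45.3, *Nfkbiz* at 246 ± 41.3 and *Relb* at 173 ± 6.81, where *Nfkbie* and *Nfkbiz* overlapped each other. With EVs, *Nfkbie* reached 492 ± 33.5 and *Nfkbiz* 430 ± 46.4 per kb, while *Rel* went to 387 ± 11.2. In sham, *Rel* was above both of these inhibitors in every culture, and in EV its range of 374 to 394 was below that of *Nfkbie*, 454 to 518, and overlapped that of *Nfkbiz*, 377 to 464. With EVs *Nfkbia*, at 1416 ± 48.4, was below *Rela*, at 1520 ± 50.5, in range as in mean (1372 to 1468 against 1474 to 1574), which reverses their order in sham. This reversal depends on the transcript taken: with the longest transcript of each gene *Nfkbia* was at 1416 and *Rela* at 862 per kb in EV cultures, and *Rel* and *Nfkbie* came to 387 and 392. In sham it also placed *Tnfaip3*, at 431, below *Rel*, at 545, and *Nfkbib*, at 344, below *Nfkb2*, at 359. *Nfkb1* was first and *Relb* last with either length.

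The share of each subunit in the length-scaled counts of all 5 subunits gives their composition within a library, free of the scaling between libraries. *Nfkb1* took 52.1%, 51.2% and 49.8% in sham and 58.3%, 57.4% and 56.2% in EV cultures. *Rel* took 9.93%, 10.01% and 10.6% in sham and 6.84%, 6.46% and 6.62% in EV. The groups were separate for both. The *Nfkb1* share differed by 6.31 and the *Rel* share by -3.54 percentage points (EV minus sham), each with p = 0.1 in a two-sided exact permutation test, the smallest p that 3 against 3 samples allow, and 0.167 after Benjamini-Hochberg adjustment over the 5 shares. The *Nfkb2* share went from 8.21% ± 0.297 to 7.09% ± 0.546 (SD, exact permutation p = 0.1). *Rela* had 27.4% ± 0.791 in sham and 26.1% ± 0.484 in EV (exact permutation p = 0.2), and *Relb* 3.23% ± 0.237 and 2.84% ± 0.227 (exact permutation p = 0.2). Within same-numbered pairs of cultures, each of the 5 shares differed with 1 sign in all 3 pairs: by 6.22 to 6.42 points for *Nfkb1*, and by -1.55 to -0.84 for *Rela* and -0.59 to -0.15 for *Relb*. An exact sign-flip test within the pairs gave p = 0.25 for each share, the smallest that 3 pairs allow. The shares sum to the whole, so a larger share of *Nfkb1* lowers the others.

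**Figure D3:**
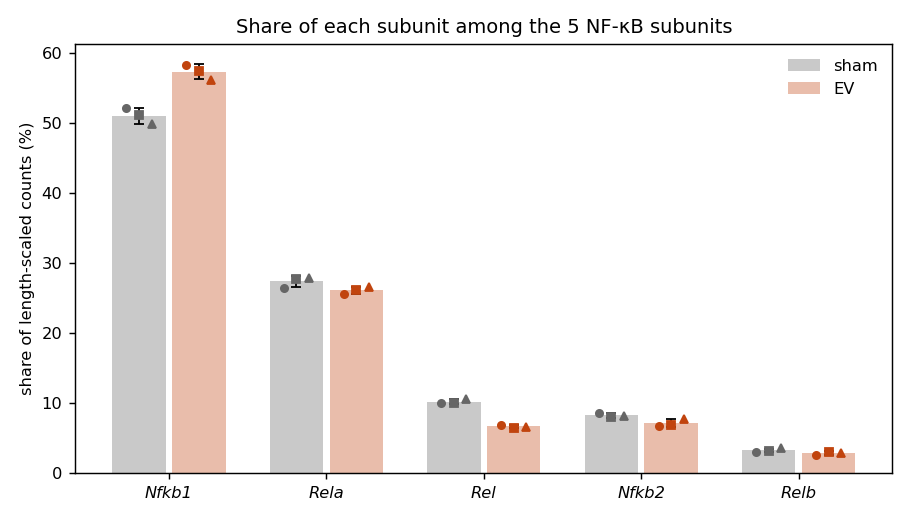
Share of each NF-κB subunit (y axis, % of length-scaled counts of the 5 subunits) in sham (grey) and EV (orange) cultures. Bars are means from 0, error bars SD and points the 3 cultures of each group. *Nfkb1* takes the largest share in both groups, 51.0% in sham and 57.3% in EV.

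The other genes of the pathway were taken as lists around the 10 genes: further IκB proteins and negative regulators, the IKK complex with its ubiquitin machinery, the noncanonical route, the IKK-related kinases and NF-κB target genes. Of the 109 different genes tested in these lists, 34 were higher and 20 lower with EVs, 49.5% called against 23.7% of all genes tested. The lists were chosen with earlier results of these data known, and the difference between these shares was not tested.

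Among 19 further IκB proteins and negative regulators, 6 were higher and 2 lower, 42.1% called against 23.7% of all genes tested. Their median log2 fold change was 0.14. The nuclear IκB genes rose alongside *Nfkbiz*. *Bcl3*, the gene of a nuclear IκB protein that binds p50 and p52, was at 296.4, 311.3 and 305.0 in sham and 571.5, 619.7 and 627.5 in EV cultures. Its groups were far apart, with a 1.99-fold higher mean, a log2 fold change of 0.995 ± 0.118 (SE) and an adjusted p of 0.000106. *Nfkbid*, the gene of the nuclear protein IκBNS, was at 1401, 1228 and 1281 in sham and 2448, 1915 and 2443 in EV cultures. It rose 1.74-fold, with an adjusted p of 0.000211. *N4bp1*, which encodes a suppressor of NF-κB signalling, rose 1.57-fold (adjusted p = 1.4e-05), and *Cyld*, the gene of a deubiquitinase that removes the chains that activate IKK, rose 1.31-fold (adjusted p = 0.00125, and 0.0159 with library totals only). *Tnip2*, the gene of the A20-binding protein ABIN-2, fell 2.57-fold, from 381.1, 583.4 and 401.0 to 170.8, 171.4 and 187.1 (adjusted p = 0.00032). *Nfkbil1*, named for its likeness to IκB, fell 1.88-fold (adjusted p = 0.00141). For *Tnip1*, the gene of ABIN-1, the difference was -0.23 on the log2 scale (adjusted p = 0.0706).

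Of 26 genes tested of the IKK complex and its ubiquitin machinery, 3 were higher and 1 lower, 15.4% called beside 23.7% of all genes. The difference between these shares was not tested. *Tab2* and *Tab3* encode adaptors that bring the kinase TAK1 to ubiquitin chains, and *Rbck1* encodes HOIL-1, a part of the linear ubiquitin ligase. *Tab2* rose 1.33-fold (adjusted p = 0.000333), *Tab3* 1.36-fold (0.00353) and *Rbck1* 1.25-fold (0.00505). *Ikbkg*, the gene of the regulatory subunit NEMO, was at 4147, 3608 and 3560 in sham and 2943, 3167 and 2882 in EV cultures, 1.26-fold lower, with an adjusted p of 0.00725. The kinase genes were not called: *Chuk* (IKKα) differed by 0.25 (adjusted p = 0.0253) and *Ikbkb* (IKKβ) by -0.17 (0.0409) on the log2 scale. Some of these calls were lost with 2 cultures in a group, at folds of about the same size. Leaving out 1 culture gave *Ikbkg* an adjusted p of 0.0111 to 0.0450, whichever was left out, with log2 fold changes of -0.37 to -0.25. *Rbck1* then ran from 0.27 to 0.36 and *Tab3* from 0.38 to 0.53 on the log2 scale. *Rbck1* lost its call without sham replicates 2 and 3 (0.0137 and 0.0139) and without EV replicates 1, 2 and 3 (0.0143, 0.0264 and 0.0273). *Tab3* lost it without sham replicate 2 (0.0106) and without EV replicates 1, 2 and 3 (0.0182, 0.0212 and 0.0115). With library totals only, *Tab3* and *Rbck1* had adjusted p-values of 0.0287 and 0.0670.

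In the noncanonical route 4 receptor genes fell and the central kinase rose. *Tnfrsf11a*, the gene of RANK, was at 838.9, 1474 and 1471 in sham and at 58.9, 121.7 and 129.7 in EV cultures, a 12.1-fold fall (log2 fold change -3.59 ± 0.301 (SE), adjusted p = 1.06e-05). *Ltbr*, the lymphotoxin β receptor gene, fell 2.84-fold, *Tnfrsf1b*, the gene of TNF receptor 2, 2.70-fold and *Tnfrsf12a*, the gene of the TWEAK receptor, 2.60-fold (adjusted p = 9.62e-05, 6.3e-05 and 0.00302). *Tnfrsf12a* lost its call without EV replicate 1 (0.0146) and without EV replicate 3 (0.0209). Macrophage markers were lower with EVs as well, with the sums given above, and their part in these falls was not tested. *Map3k14*, the gene of NIK, was at 1015, 805.2 and 657.3 in sham and 1499, 1611 and 1608 in EV cultures, with a 1.90-fold higher mean (adjusted p = 0.000492). *Traf3*, whose product targets NIK for degradation, rose 1.57-fold (adjusted p = 0.000132). *Birc3* (cIAP2) had overlapping groups (log2 fold change -0.11, adjusted p = 0.217). Of the 13 genes tested on this route 4 were higher and 4 lower, 61.5% called against 23.7% of all genes tested. The other genes that were higher, named after their values were seen, were *Cd40* (1.87-fold, adjusted p = 0.00326) and *Tnfsf14* (1.19-fold, 0.00993). The p100 gene *Nfkb2* and *Relb*, on which this route acts, were not called, as described for the subunits. Among 5 IKK-related genes, *Tbkbp1*, the gene of an adaptor of the kinase TBK1, fell 4.83-fold (adjusted p = 0.000543) and *Ikbke* (IKKε) 1.42-fold (0.00918), so 40% were called against 23.7% of all genes tested. *Ikbke* lost its call without sham replicates 2 and 3 (0.0248 and 0.0320), without EV replicates 1, 2 and 3 (0.0416, 0.0501 and 0.0255) and without the filter on low counts (0.0112).

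Target genes moved in both directions. Of 56 tested, 24 were higher and 11 lower, 62.5% called against 23.7% of all genes tested. The median log2 fold change was 0.18 against -0.01 over all genes tested. *Cd69*, an early activation marker, was at 577.6, 506.2 and 585.7 in sham and 6528, 5865 and 5861 in EV cultures, 10.9-fold higher (adjusted p = 6.6e-09). *Il6*, the cytokine gene that IκBζ helps to induce, was at 80.2, 60.1 and 82.6 in sham and 722.3, 641.1 and 523.1 in EV, 8.43-fold higher (adjusted p = 1.6e-06). *Ier3*, an immediate early gene linked to survival, rose 4.84-fold (adjusted p = 4.85e-08). *Cd83*, a maturation marker of dendritic cells and other leukocytes, fell 6.40-fold, from 75.7, 134.8 and 162.8 to 19.0, 20.6 and 18.3 (adjusted p = 0.000493). *Bcl2a1a*, of the anti-apoptotic Bcl2a1 family, had a 28.7-fold higher estimate (adjusted p = 1.21e-06), which is uncertain because its near-identical copies share reads with it. These copies were not called: *Bcl2a1b* went from 1172 ± 389 to 1362 ± 114 (SD, 1.17-fold, adjusted p = 0.455) and *Bcl2a1d* from 91.6 ± 41.8 to 173 ± 49.4 (1.90-fold, 0.0602). Many of these genes are also induced by other factors, so their counts do not measure NF-κB activity.

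**Figure D4:**
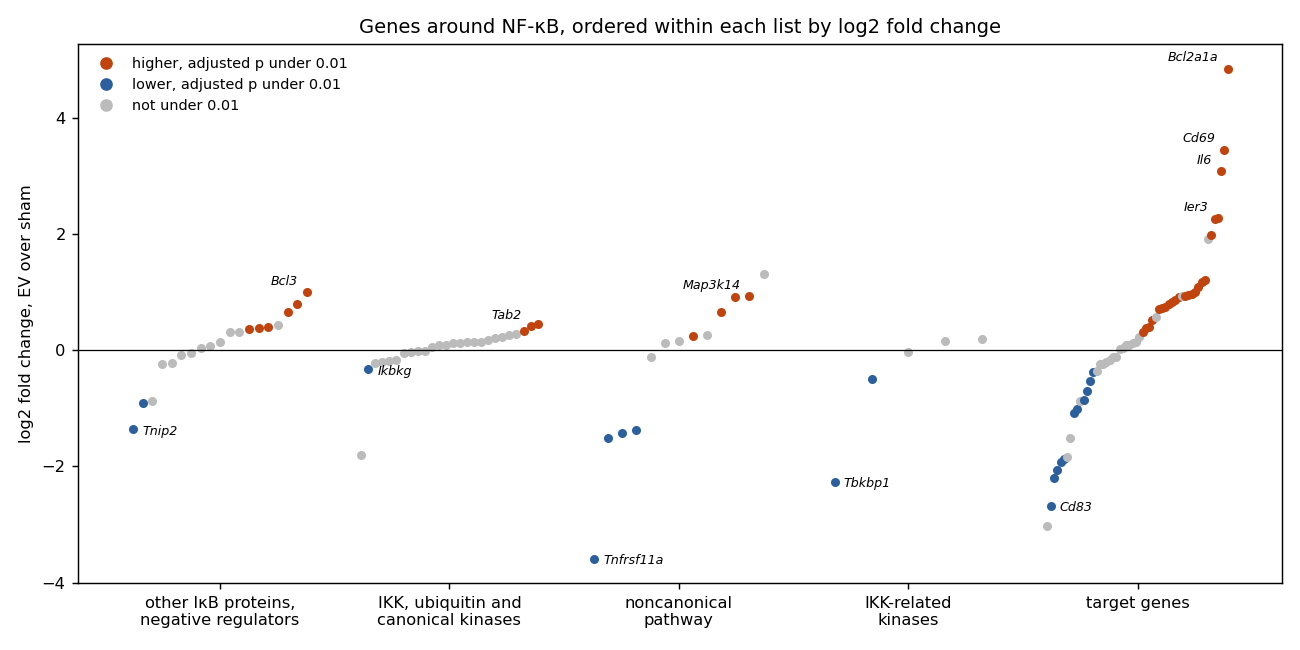
Log2 fold change of EV over sham (y axis) for the genes tested in the 5 lists around NF-κB (x axis), ordered within each list. Orange genes were higher and blue genes lower at an adjusted p under 0.01, and grey genes were not called. Target genes span the widest range, with *Bcl2a1a*, whose estimate is uncertain, *Cd69* and *Il6* at the top, while most genes of the IKK list lie near 0.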

How the data were processed

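Libraries were made by poly(A) selection and sequenced from 3 sham and 3 EV cultures, grouped by the treatment in the labels. Per the submitters' processing notes, the authors used FastQC, Cutadapt, Salmon and DESeq2 with mm10; versions, annotation and strand setting are not given in the sources used here. The authors deposited estimated counts per gene, which were rounded here, and normalized counts, a signal obtained by adding 1 to each rounded estimated count and dividing by the size factor of the library. Their table of fold changes, standard errors, statistics and p-values was not used. Genes were tested in R 4.3.3 with edgeR 4.0.16 (TMM, filterByExpr, quasi-likelihood test), called at an adjusted p under 0.01. The study also required an absolute log2 change of 1 or more, which was an alternative here. Standard errors were obtained from the F statistic (log2 fold change over its square root). Alternatives were other scalings, no filter, DESeq2 1.42.0, limma 3.58.1 on the deposited normalized counts (log2, pseudocount 1 or 10), other thresholds and leaving out each culture. The tests were also run on simulated counts with the same dispersion for every gene. That setting is simpler than the spread here, so the run does not give the error rate in these data.

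The replicate number in the labels is shared by the groups. The deviations of same-numbered cultures from their group means correlated with r of 0.205, 0.179 and 0.105 over 10454 genes. Cultures with different numbers were not compared in this way, so these values do not settle whether the number pairs the cultures. The main fit took treatment only, and a fit with the number as a block was an alternative. Whether each number marks separate marrow is not stated, so that p-values measure the spread between these cultures.

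The members and lists were chosen with earlier results of these data known, and no test over a list was made. Named were the 10 genes, in each pathway list the 5 with the largest absolute log2 fold change among those called with no overlap, and 10 direct partners. Transcript lengths, positions and shared 31-base words came from GENCODE vM21 (GRCm38, the assembly of mm10), and levels per kb used the median protein-coding transcript. Intervals of fold changes are at 95%.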

Additional observations from a re-analysis of the deposited data

How the results depend on the processing

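The counts of 3 higher and 2 lower genes among the 10 were unchanged with DESeq2 size factors, the DESeq2 test, no filter, and limma with either pseudocount. With the replicate number as a block they were also 3 and 2, with 33 higher and 22 lower genes in the pathway lists and 3575 calls over all genes (26.5%) against 3204, and no gene of the naming rule gained or lost its call. The sign-flip test of the subunit shares within pairs, chosen after seeing the data, keeps the differences (6.31 points for *Nfkb1*, -3.54 for *Rel*) and changes the p. At an adjusted p under 0.05, 4 of the 10 were higher and 2 lower. When a log2 change of 1 or more in either direction was also required, which 9.45% of all genes passed, 0 of the 10 were higher and 0 lower, against 9 higher and 13 lower genes in the pathway lists in place of 34 and 20. Without 1 culture, 2 to 3 of the 10 were higher and 1 to 2 lower. *Nfkb1* and *Nfkbia* lost their calls together, without sham replicate 3 and without each EV replicate in turn.

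With library totals only, the median log2 fold change of all genes moved from -0.01 to -0.16, and 30.7% of calls were higher in place of 50.9%. *Rela* and *Nfkbib*, not called in any fit, then had log2 fold changes of -0.0934 and -0.0737, and 26 genes of the pathway lists were higher and 28 lower. For *Relb*, also not called, leaving out 1 culture gave -0.0997 to 0.0148, above 0 without EV replicate 1. With the longest transcript, the difference in the *Rel* share was -4.84 points in place of -3.54. Of 481 alternative fits of single genes, 440 kept direction and call, 35 lost the call, 3 gained it and 3 changed sign. The causes were not tested. Counting error was largest for *Relb*, 5.68% at its lowest count, and the intervals of the genes not called reached -0.36 for *Relb*, 0.34 for *Nfkbib* and 0.45 for *Tnfaip3*.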
